A study of Mus musculus with 25 samples.

Results

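Collagen genes are those whose gene name on the array is Col, a type number, the letter a and a chain number. There were 44 such genes among the 37074 gene names of the array, measured with 91 probes. The authors' normalised table held 42 of them with 71 probes, and Col10a1 and Col24a1 were not in it. Each gene was represented by its probe with the highest mean over the 25 arrays. The genes were read in 3 classes, namely fibrillar collagens (10 of 11 genes in the table), basement membrane collagens (8 of 8) and other collagens (24 of 25). Of the 42 probes used, 38 were well above background on all 25 arrays, and none was below it on all of them.

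Transcripts were measured in male C57BL6/J mice, in their perigonadal white adipose tissue (pgWAT), which lies beside the epididymis. All mice were fasted for 24 h and then refed for 18 h with food and drinking water containing 20% glucose. The 4 groups were ChREBPβ WT (7 mice) and ChREBPβ KO (6 mice), which lack the short isoform of the glucose-responsive factor ChREBP through a genome-edited deletion of exon 1b of Mlxipl in every cell of the body, and total ChREBP WT (7 mice) and total ChREBP KO (5 mice), from an Mlxipl-null line without either isoform. Each array held 1 mouse and all 4 wash batches held all 4 groups. Age was not given in the sources used here. Neither deletion was restricted to fat, so pgWAT was taken from animals that lacked the isoform in every tissue.

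Collagens are trimers of chains in which glycine recurs at fixed spacing, at the start of each triplet of residues, which lets the chains wind into a triple helix. Fibrillar collagens (types I, III and V) form the tensile fibres between cells, type IV forms the sheet of the basement membrane that surrounds each adipocyte and capillary, and types XV and XVIII link that sheet to the fibres. Type VI, a beaded filament next to the basement membrane, is abundant in fat, and the cleaved end of its α3 chain is known as endotrophin. In fat, fibroblasts and their progenitors make most of the fibrillar collagen, and adipocytes and endothelial cells make the type IV collagen of their own basement membranes.

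The repeat can be read in the array itself. In 4 of the 91 collagen probes, the 60 bases held a run of at least 6 glycine codons (GGN) set 9 bases apart, against 9 of all 56605 distinct probes. They are shown because 2 of them report on genes with a called difference (Col5a3 and Col6a3), as second probes, and the other two were the probes used for their genes. Capitals mark the glycine codons. The positions are those of the array design on mm9, and are Col11a2 chr17:34189287-34189453 (plus strand), Col15a1 chr4:47283786-47283845 (plus strand), Col5a3 chr9:20590066-20590795 (minus strand) and Col6a3 chr1:92689602-92690594 (minus strand), where a span over 60 bases means that the probe does not match 1 unbroken stretch.
Col11a2: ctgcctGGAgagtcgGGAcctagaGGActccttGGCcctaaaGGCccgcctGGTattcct
Col15a1: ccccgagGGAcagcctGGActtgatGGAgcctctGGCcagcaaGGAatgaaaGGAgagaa
Col5a3: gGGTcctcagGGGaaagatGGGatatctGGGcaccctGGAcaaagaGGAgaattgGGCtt
Col6a3: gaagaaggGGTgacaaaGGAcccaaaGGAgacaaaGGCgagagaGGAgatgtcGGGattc

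Signs of other tissues differed between the mouse lines, and are given here because they touch later values. The mean of 5 liver genes (Alb, Apoa1, Ttr, Serpina1a and Fgb) ranged, on the log2 scale, from 12.94 to 16.52 in the wild types and from 11.40 to 15.97 in the knockouts of the ChREBPβ line. In the total line it ranged from 7.50 to 13.62 in the wild types and from 7.03 to 8.23 in the knockouts. The array of total ChREBP WT replicate 2 had the highest mean of the epididymis and vas deferens list, 13.87, against 5.59 to 7.39 in the rest of its group. In values rebuilt from the scanner, that array was the lowest of its group for the type I, III and V chains. It was also lowest for Col4a1, Col4a2, Col6a1, Col6a2 and Col6a3, and highest for Col7a1 and Col27a1. Its Col5a1 value was 11.74, against 12.27 or more in the rest. Leaving out single arrays left the Col6a3 difference in total ChREBP KO at 0.55 to 0.69. The mean of 4 kidney genes was 8.59 ± 2.30 (SD, n = 7) in ChREBPβ WT, 7.33 ± 1.23 (n = 6) in ChREBPβ KO and 6.76 ± 0.35 (n = 7) in total ChREBP WT, with a range of 6.16 to 7.02 in total ChREBP KO. Of the 4, Kap and Slc34a1 were called between the wild types, lower in the total line. The part of this list in the values below was not tested. Adipocyte markers were high in all groups, with list means from 15.78 to 16.24. The group means were 15.94 ± 0.11 (SD) in ChREBPβ WT and 16.08 ± 0.13 in its KO. They were 15.96 ± 0.10 in total ChREBP WT and 16.15 ± 0.02 in its KO. In the total line the ranges did not overlap (15.78 to 16.08 in WT, 16.12 to 16.19 in KO). Mlxipl itself, read with its brightest probe, was 1.77 ± 0.14 (SE) log2 units lower in total ChREBP KO than in its WT (adjusted p = 1.1e-08) and 0.74 ± 0.13 lower in ChREBPβ KO than in its WT (adjusted p = 0.116). The other Mlxipl probes gave -0.66 (limma adjusted p = 0.00103) and 0.08 (adjusted p = 0.695) in total ChREBP KO. In ChREBPβ KO they gave -0.47 and -0.06, neither past the test. Between the wild types, the brightest probe was 0.91 ± 0.12 higher in the total line (limma adjusted p = 3.99e-05). Where this probe lies relative to exon 1b was not looked up, so it is no check of the ChREBPβ deletion.

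The first comparison asked whether loss of ChREBPβ alone altered the collagen genes of pgWAT. No collagen gene passed the limma test (0 of 42, adjusted p under 0.05), as was so for all genes tested (0% called of 26420). At an unadjusted p under 0.05, 5 of 42 were higher and 0 lower. Over all genes 9.45% passed, 6.14% being higher. The 5 were Col5a3, Col5a1, Col6a1, Col6a2 and Col12a1. The median log2 difference was 0.06 over the 10 fibrillar genes, 0.10 over the 8 basement membrane genes and 0.06 over the 24 other genes, against 0.02 over all genes.

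**Figure D1:**
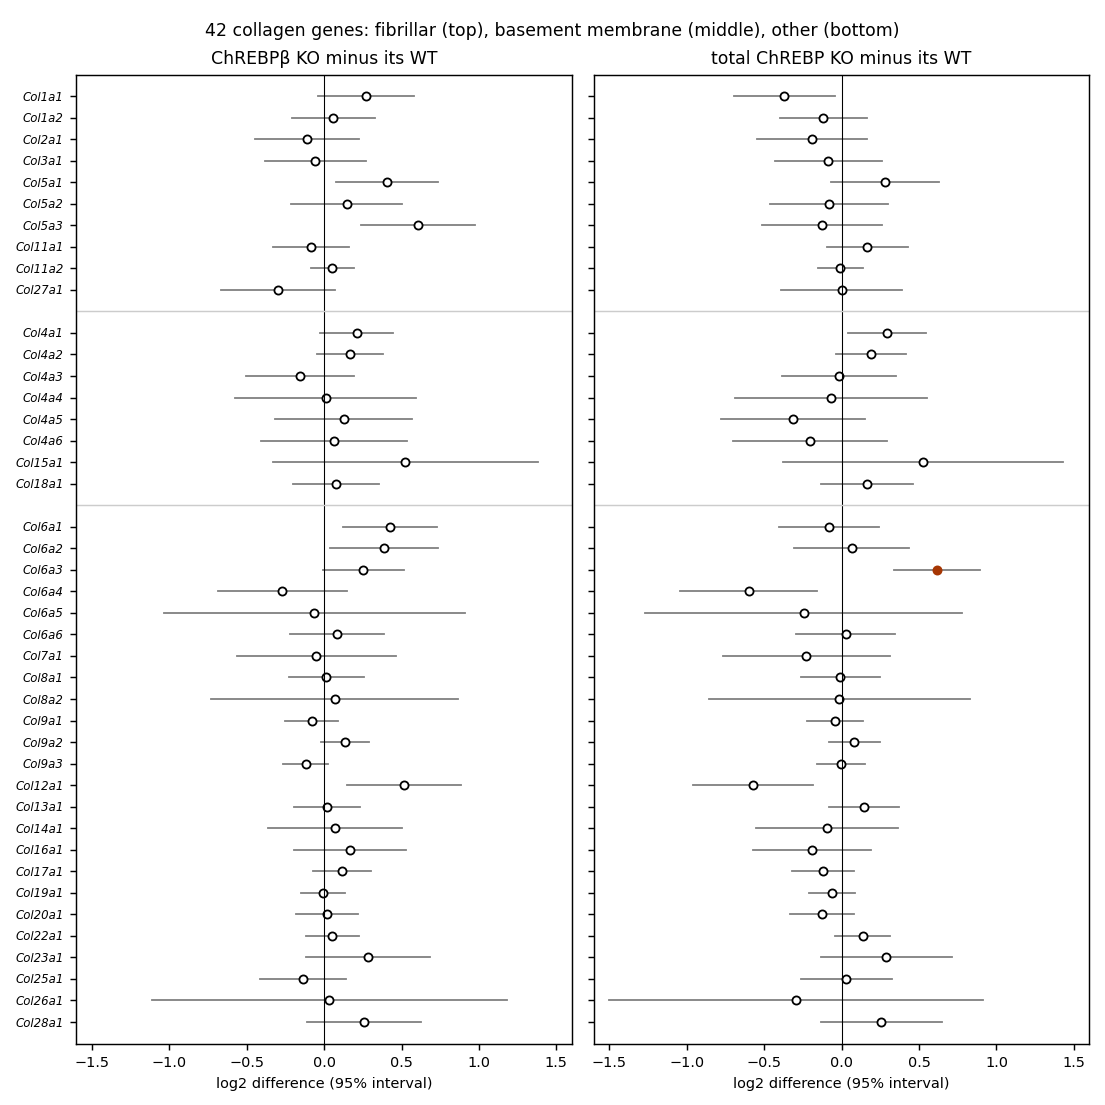
Log2 difference of 42 collagen genes between knockout and wild type of the same line, for ChREBPβ (left) and total ChREBP (right). Points are limma estimates, bars their 95% intervals, and the filled point, Col6a3 at 0.61 in total ChREBP KO, is the single point with an adjusted p under 0.05.

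Among fibrillar collagens, the chains of type I, the main protein of tendon and scar, had no called difference in ChREBPβ KO. Col1a1 (α1 chain) had a lowest, median and highest log2 level of 13.03, 13.29 and 13.64 in ChREBPβ WT and of 13.14, 13.55 and 13.93 in ChREBPβ KO. The groups overlapped, and the difference was 0.27 with a 95% interval of -0.04 to 0.58. For Col1a2 (α2 chain) it was 0.06 (interval -0.21 to 0.33) and for Col3a1, the chain of the type III fibres of soft organs, -0.06 (interval -0.38 to 0.27). The ranges of both groups overlapped for all 3 genes. Type V chains start fibrils and set their width. Col5a3, the α3 chain, ran from 13.58 through a median of 14.04 to 14.62 in ChREBPβ WT and from 14.55 through 14.70 to 14.85 in ChREBPβ KO. Only ChREBPβ WT replicate 2 reached into the knockout range. The difference was 0.61 ± 0.18 (SE), or 1.52-fold, with an adjusted p of 0.345. Its second, triple-helix probe gave 0.69 (adjusted p = 0.345). Col5a1 differed by 0.41 ± 0.16 (adjusted p = 0.442) and Col5a2 by 0.15 ± 0.17 (adjusted p = 0.873).

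**Figure D2:**
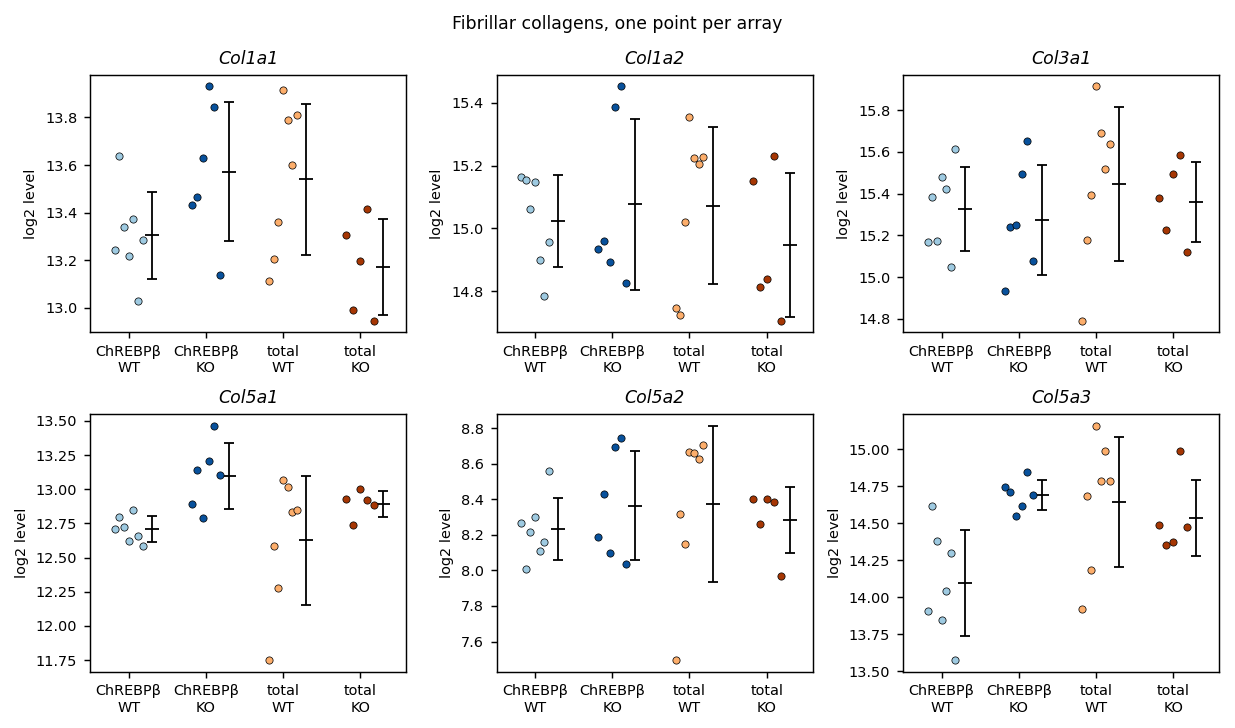
Log2 level of 6 fibrillar collagens in pgWAT, 1 point per array, with the group mean and SD as a bar beside the points. Scales differ between panels. Col5a3 was 14.10 ± 0.36 in ChREBPβ WT and 14.69 ± 0.10 in ChREBPβ KO, and 1 array of the former reaches the range of the latter.

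In ChREBPβ KO the 3 main type VI chains lay above their wild-type means without passing the test. Col6a1 had a difference of 0.42 ± 0.15 (adjusted p = 0.402), Col6a2 of 0.39 ± 0.17 (adjusted p = 0.507) and Col6a3 of 0.25 ± 0.13 (adjusted p = 0.572). Col12a1, a chain that sits on the surface of fibrils, had a difference of 0.51 ± 0.18 (adjusted p = 0.402). Among basement membrane collagens, Col4a1 and Col4a2, the paired chains of the common type IV trimer, differed by 0.21 ± 0.11 and 0.17 ± 0.10 (adjusted p = 0.615 and 0.671). Col18a1, whose cleaved end is endostatin, differed by 0.08 ± 0.13 (adjusted p = 0.927). Col15a1, its close relative, had a wide spread, from 7.64 to 10.85 in ChREBPβ WT, and its difference of 0.52 had an interval of -0.33 to 1.38.

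Loss of both isoforms was compared in the same way in the total ChREBP line. One collagen gene of 42 was called, or 2.38%, where 9.25% of all genes tested were called. At an unadjusted p under 0.05, 2 of 42 were higher (Col6a3 and Col4a1) and 3 lower (Col1a1, Col6a4 and Col12a1). Over all genes 21% passed, 13.2% being higher and 7.78% lower. The median log2 difference was -0.08 over the fibrillar genes, 0.07 over the basement membrane genes and -0.03 over the other genes, against 0.02 over all genes.

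The called gene was Col6a3, the α3 chain of type VI. Its log2 levels in total ChREBP KO were 13.48, 13.27, 13.67, 13.47 and 13.19 (replicates 1, 2, 3, 4 and 7), and in total ChREBP WT they ran from 12.50 through a median of 12.92 to 13.06. All 5 knockout arrays lay above all 7 wild-type arrays. Non-overlap in this direction held for 4.31% of all genes. Col6a3 rose by 0.61 ± 0.13 (SE), or 1.53-fold, with an adjusted p of 0.00435. Within the wash batches the difference was 0.50, 1.09, 0.25 and 0.75. The probe lies at chr1:92663663-92663722 (mm9, minus strand). The other probes of the gene gave 0.38 (the triple-helix probe, adjusted p = 0.384) and 0.32 (adjusted p = 0.144), the same direction but not past the test.

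The partner chains of the same trimer were not called. Col6a1 had a difference of -0.08 (interval -0.40 to 0.24) and Col6a2 of 0.06 (interval -0.31 to 0.43). The other Col6a2 probes gave 0.35 (limma adjusted p = 0.434) and 0.08 (adjusted p = 0.883). Within each array, the log2 value of Col6a3 minus that of Col6a1 was -0.89 ± 0.24 (SD, n = 5) in total ChREBP KO and -1.57 ± 0.13 (n = 7) in its WT, and -1.86 ± 0.23 (n = 7) and -2.03 ± 0.13 (n = 6) in ChREBPβ WT and KO. The distance between these probes was therefore smaller in total ChREBP KO than in any array of the other groups, from -1.24 to -0.63 against a highest value of -1.35 in total ChREBP WT. This pair was set side by side after its values were seen and was not tested. Type VI has further chains that can replace α3. Of these, Col6a4 had a difference of -0.60 ± 0.21 (adjusted p = 0.0874), Col6a5 of -0.25 (interval -1.27 to 0.78) and Col6a6 of 0.03 (interval -0.29 to 0.35).

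**Figure D3:**
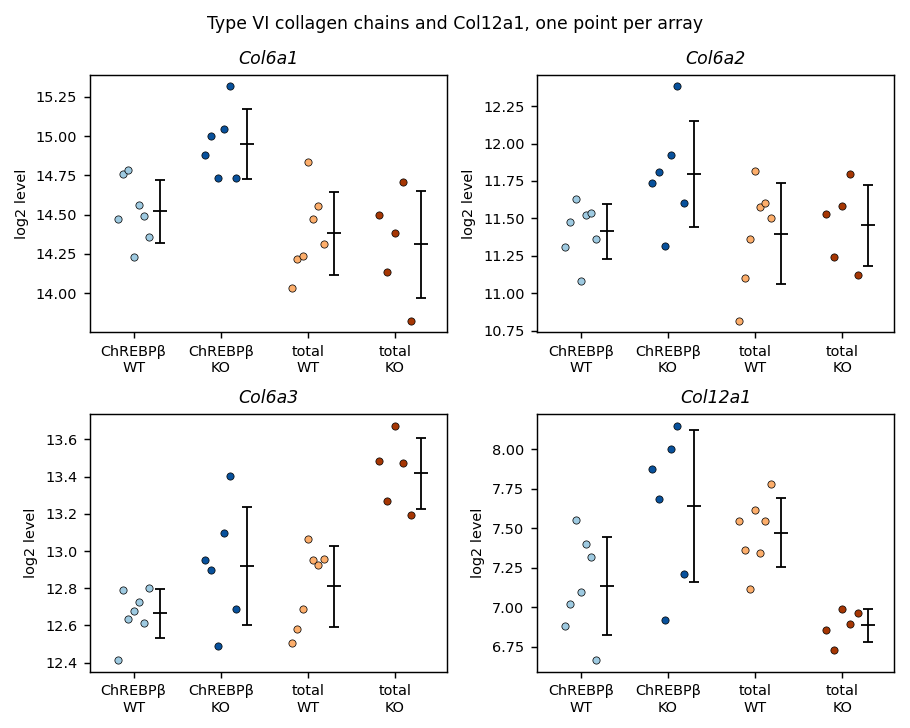
Log2 level of Col6a1, Col6a2, Col6a3 and Col12a1, 1 point per array, with the group mean and SD as a bar beside the points. In total ChREBP KO, Col6a3 lies at 13.42 ± 0.19 above all arrays of its WT, Col12a1 at 6.89 ± 0.10 below all arrays of its WT, and Col6a1 and Col6a2 overlap theirs.

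The liver list was lower in total ChREBP KO (7.55 ± 0.44, SD, n = 5) than in its WT (10.16 ± 2.13, n = 7), and Col6a3 is shown against it in the plot of liver markers. With the liver list mean as a covariate, an alternative chosen after seeing the data, the Col6a3 difference was 0.48 with an adjusted p of 0.0688. In whole tissue, a change in the number of cells of a type and a change of RNA per cell cannot be told apart.

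The bases before the Col6a3 start are printed because it is the single collagen called in a knockout with the probe used for each gene. ChREBP with its partner Mlx binds pairs of CACGTG-like boxes, so CACGTG and its spaced pair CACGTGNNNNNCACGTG were searched on both strands, with CCAAT, a common promoter box, as well. RefSeq promoter windows (250 bases before to 50 after a start, GRCm38.p6) were at hand for 35 collagen genes, with 38 windows. CACGTG was in 0 of the 38 windows, against 7.15% of all 32851 windows, and the exact spaced pair was in none of either. CCAAT was in 13 of 38 (34.2%), against 37.4% of all. A missing match says only that these letters were not in the window. The sequence below is chr1:90843972-90844221 (GRCm38.p6, minus strand), 5′ to 3′, and it holds neither box, so no letter is in capitals.
Col6a3: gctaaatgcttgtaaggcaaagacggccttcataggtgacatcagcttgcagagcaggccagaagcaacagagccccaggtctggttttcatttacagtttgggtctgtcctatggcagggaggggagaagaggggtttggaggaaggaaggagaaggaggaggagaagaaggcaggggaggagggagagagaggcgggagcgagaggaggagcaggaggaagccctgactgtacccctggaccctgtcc

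Fibrillar collagens showed no called change in total ChREBP KO. Col1a1 had levels of 13.31, 12.99, 13.20, 13.42 and 12.95 in the knockout (replicates 1, 2, 3, 4 and 7) and ran from 13.11 through a median of 13.60 to 13.91 in the wild type. The groups overlapped, and the difference was -0.37 ± 0.16 (adjusted p = 0.174). Of its other probes, the brighter pair gave -0.36 and -0.32 and a dim one -0.03. Col1a2 differed by -0.12 (interval -0.40 to 0.16), Col3a1 by -0.09 (interval -0.43 to 0.26), Col5a1 by 0.28 (interval -0.07 to 0.63), Col5a2 by -0.08 (interval -0.46 to 0.30) and Col5a3 by -0.13 (interval -0.52 to 0.26). In the basement membrane, Col4a1 differed by 0.29 ± 0.12 (adjusted p = 0.153) and Col4a2 by 0.19 ± 0.11 (adjusted p = 0.363). Col15a1 differed by 0.53 (interval -0.38 to 1.43) and Col18a1 by 0.16 (interval -0.13 to 0.46). The second, dimmer probe of Col15a1, well above background on 25 arrays, gave 0.59 and passed the limma test (adjusted p = 0.0437). The counts of called genes rest on the brighter probe and leave this one out.

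Whether the effects of the 2 deletions differed was tested as the total ChREBP effect minus the ChREBPβ effect. One of 42 collagen genes was called, or 2.38%, where 3.47% of all genes were called. It was Col12a1, whose effect was 1.09 ± 0.26 (SE) log2 units lower in the total line (difference of effects -1.09, adjusted p = 0.018). In the ChREBPβ line its levels ran from 6.67 through a median of 7.10 to 7.55 in WT and from 6.92 through 7.78 to 8.15 in KO, and these overlapped. In the total line they ran from 7.12 through 7.54 to 7.78 in WT and were 6.85, 6.73, 6.99, 6.90 and 6.96 in KO (replicates 1, 2, 3, 4 and 7), and no knockout array reached the wild-type range. Non-overlap downwards held for 3.18% of all genes. The separate effects were 0.51 (adjusted p = 0.402) and -0.57 ± 0.19 (adjusted p = 0.0622), and neither passed its own test. Within wash batches the effect was 0.07, 0.66, 0.90 and 0.65 in the ChREBPβ line and -0.56, -0.38, -0.48 and -0.81 in the total line. The probe lies at chr9:79446895-79446954 (mm9, minus strand). A second, dimmer probe, well above background on 24 arrays, gave a difference of effects of -0.34 (adjusted p = 0.361).

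A further 3 collagen genes had an unadjusted p under 0.05 for the difference of effects, all lower in the total line. With Col12a1 these were 4 of 42, where 13.3% of all genes passed, 6.37% being lower. Col1a1 had a difference of effects of -0.64 ± 0.22 (adjusted p = 0.134), Col5a3 of -0.73 ± 0.26 (adjusted p = 0.16) and Col6a1 of -0.50 ± 0.21 (adjusted p = 0.285). None of the 8 basement membrane genes was among them. The Col4a1 value was 0.08 (interval -0.26 to 0.43), that of Col4a2 0.02 (interval -0.29 to 0.33) and that of Col3a1 -0.03 (interval -0.50 to 0.44).

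The wild-type mice of the 2 lines were also compared, since each knockout was read against its own line. Of 42 collagen genes, 4 were called (9.52%, 3 higher and 1 lower in total ChREBP WT), where 22% of all genes were called, 13.5% being higher and 8.51% lower. At an unadjusted p under 0.05 there were 5 of 42, against 34% of all genes. Col18a1 was lower, from 12.63 through a median of 12.87 to 13.00 in total ChREBP WT and from 13.26 through 13.74 to 14.34 in ChREBPβ WT. No array of one group entered the range of the other, which held downwards for 2.05% of all genes. The difference was -0.89 ± 0.13, or 1.86-fold, with an adjusted p of 7.49e-05, and -1.23, -0.99, -0.86 and -0.54 within wash batches. Its probe, at chr10:76515820-76515879 (mm9, minus strand), was the single one of the gene. Liver makes much Col18a1, and the liver list mean was 15.23 ± 1.32 in ChREBPβ WT and 10.16 ± 2.13 in total ChREBP WT. With that mean as a covariate, the Col18a1 difference was -0.63 (limma adjusted p = 0.0656). With group means removed, Col18a1 and the liver list had r = 0.37 over the 25 arrays. The liver list differed with the line, so line and liver list cannot be told apart here. The part of liver RNA in the Col18a1 difference was not tested.

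**Figure D4:**
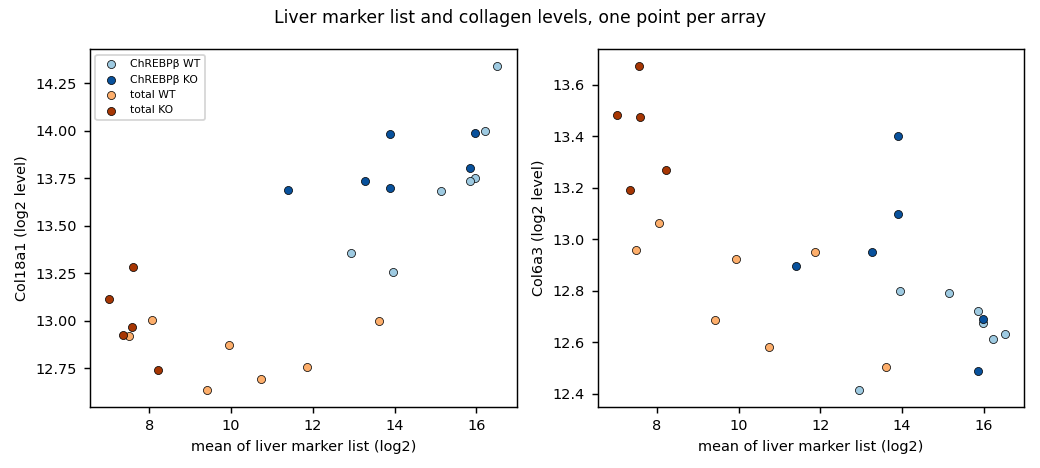
Log2 level of Col18a1 (left) and Col6a3 (right) against the mean log2 level of 5 liver genes, 1 point per array, coloured by group. The ChREBPβ line lies at liver means of 11.40 to 16.52 and the total line at 7.03 to 13.62, and no total ChREBP WT array reaches a Col18a1 level of ChREBPβ WT (13.00 against 13.26).

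The genes that were higher in total ChREBP WT were Col5a3, Col6a4 and Col9a2. Col5a3 ran from 13.92 through a median of 14.78 to 15.16 in total ChREBP WT, against 13.58, 14.04 and 14.62 in ChREBPβ WT, and the difference was 0.55 ± 0.17 (adjusted p = 0.0245). Within wash batches it was 0.56, 0.07, 0.78 and 0.54, and the triple-helix probe gave 0.49 (adjusted p = 0.0741). The ChREBPβ WT mean of Col5a3, 14.10, was the lowest of the 4 groups, and the others were 14.69 in its knockout, and 14.64 and 14.54 in WT and KO of the total line. Col6a4 had a difference of 0.60 ± 0.19 (adjusted p = 0.0299), and Col9a2, a chain of the cartilage collagen type IX, a difference of 0.20 ± 0.07 (adjusted p = 0.0478). Both were dim. With the liver list mean as a covariate, Col5a3, Col6a4 and Col9a2 had adjusted p of 0.504, 0.274 and 0.409. Col4a5 had an unadjusted p under 0.05 as well, with a difference of 0.54 ± 0.20 (adjusted p = 0.0587).

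Chains that share a trimer or a fibril were compared across mice. Values were centred on their group mean and correlated over the 25 arrays, with 100000 permutations within groups (two-sided) and adjustment over 9 pairs. Col4a1 and Col4a2 had the highest correlation, with r = 0.93 and rho = 0.94 (adjusted permutation p = 3e-05 and 4.5e-05, the raw p of 1e-05 being the smallest these permutations can give). Their RefSeq starts lie 21 bases apart on opposite strands of chromosome 8 (GRCm38.p6), and their promoter windows share 78 bases. Col6a1 and Col6a2 had r = 0.89 and rho = 0.91, and Col1a1 and Col1a2 had r = 0.86 and rho = 0.86 (adjusted permutation p = 3.6e-05 for the latter r). Col6a1 and Col6a3 had a lower r of 0.70 and rho of 0.67 (adjusted permutation p = 0.00031 and 0.0014). Whether these coefficients differ from each other was not tested.

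Across types, Col1a1 and Col3a1 had r = 0.82 and rho = 0.81, Col3a1 and Col5a2 had r = 0.83 and rho = 0.80, and Col5a1 and Col5a2 had r = 0.80 and rho = 0.65 (adjusted permutation p of r of 3.6e-05, 3e-05 and 0.0011). The pairs of a fibrillar with a basement membrane gene did not pass the test. Col1a1 and Col4a1 had r = 0.31 and rho = 0.25 (adjusted permutation p = 0.23 and 0.33), and Col1a1 and Col15a1 had r = 0.16 and rho = 0.11 (adjusted permutation p = 0.48 and 0.63). Without the 2 arrays farthest from the median of the first gene, r was 0.91 for Col4a1 with Col4a2, 0.89 for Col6a1 with Col6a2, 0.84 for Col1a1 with Col1a2, 0.80 for Col1a1 with Col3a1, 0.74 for Col3a1 with Col5a2, 0.66 for Col6a1 with Col6a3, 0.61 for Col5a1 with Col5a2, 0.11 for Col1a1 with Col4a1 and -0.08 for Col1a1 with Col15a1. All these arrays share the depot and the RNA of its cell mixture, and the part of cell numbers in the correlations was not tested.

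**Figure D5:**
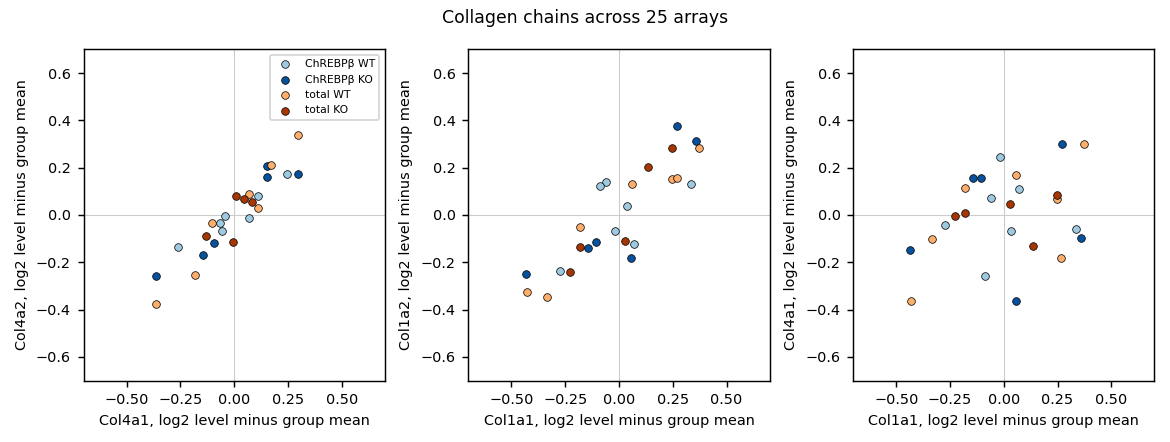
Log2 level minus the group mean for 3 pairs of collagen genes, 1 point per array (25 arrays), coloured by group. Col4a1 with Col4a2 (r = 0.93) and Col1a1 with Col1a2 (r = 0.86) lie along a line, and Col1a1 with Col4a1 (r = 0.31) do not.

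The spread between mice was wide for Col26a1, with SDs of 0.62 to 1.12 in the 4 groups, and for Col6a5, another type VI chain that can replace α3, with SDs of 0.30 to 1.15. Col6a5 ran from 10.20 to 13.38 in ChREBPβ WT and from 10.59 to 12.91 in ChREBPβ KO. In the total line it ran from 12.02 to 12.87 in the wild types and from 11.52 to 12.92 in the knockouts. Its difference between wild types was 0.84 (interval -0.09 to 1.77). Over all collagen genes and groups, the median SD within a group was 0.23 for fibrillar, 0.28 for basement membrane and 0.23 for other collagens. Of the 42 genes, 21 had more than 1 probe in the table. Their 29 other probes went the way of the probe used in 20 cases for the ChREBPβ effect, 23 for the total ChREBP effect, 22 for the difference of effects and 18 for the wild types.

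Genes that make, cut and bind collagen were read from 7 lists, with 91 genes tested. In ChREBPβ KO none passed the limma test (0 of 91, where 0% of all genes were called). An unadjusted p under 0.05 was found for 16 of the 91, with 15 higher and 1 lower. Over all genes 9.45% passed, 6.14% being higher. With both isoforms lost, 8 rose and 2 fell, or 11% called, which is near the 9.25% of all genes, so the members below are given as single genes and not as a change of the pathway. With the liver list mean as a covariate, 4 of these 10 calls were left (Adamts2, Nid2, Smad3 and Tgfbr2). Among enzymes of folding, P3h1, which hydroxylates proline, rose by 0.21 ± 0.06 (adjusted p = 0.0398), 1 of 19 genes. Among processing and crosslinking genes, 2 of 12 were called. Adamts2, which removes the N-terminal propeptide of fibrillar procollagens, rose by 0.52 ± 0.10 (adjusted p = 9e-04), from 13.55 ± 0.12 in WT to 14.08 ± 0.14 in KO with no overlap. Loxl4, a crosslinking oxidase, fell by 0.45 ± 0.14 (adjusted p = 0.0396). None of the 16 genes of collagen breakdown was called. An unadjusted p under 0.05 was found for 3 of the 16, where 21% of all genes had one. These 3 were Mmp2, Mmp13 and Mmp14 (differences of -0.40, 0.53 and -0.28).

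Ddr1, a receptor kinase that collagen activates, was the called gene among 8 receptors and rose by 0.53 ± 0.12 (adjusted p = 0.00586, or 0.109 with the liver covariate). Tnc, a matrix protein of remodelling tissue, was the 1 of 14 fibril-associated genes and rose by 0.64 ± 0.17 (adjusted p = 0.0227). Of 10 basement membrane partners, the nidogens Nid1 and Nid2, which join laminin to type IV collagen, rose by 0.46 ± 0.13 (adjusted p = 0.0342) and 0.92 ± 0.19 (adjusted p = 0.00263). Of 12 matrix regulators, 3 were called, Smad3 and Tgfbr2 among them. Smad3, a TGFβ signal carrier, rose by 0.37 ± 0.08 (adjusted p = 0.00528), and Tgfbr2, a TGFβ receptor, fell by 0.66 ± 0.12 (adjusted p = 0.000564). For the difference of effects, none of the 91 was called, where 3.47% of all genes were. An unadjusted p under 0.05 was found for 15 of the 91, with 4 higher and 11 lower. Over all genes 13.3% passed, 6.37% being lower.

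Between the wild types, 16 of the 91 were called (17.6%), 8 in each direction, where 22% of all genes were called. The lower ones in total ChREBP WT were the folding genes P4hb, Ppib, P4ha2 and Fkbp14, of which Ppib had the smallest adjusted p (-0.26 ± 0.06, adjusted p = 0.00229), with Bmp1, Timp4, Ddr1 and Lair1. Bmp1, which cuts the C-terminal propeptide of procollagens, differed by -0.38 ± 0.08 (adjusted p = 0.00266), Timp4, an inhibitor of matrix proteases, by -1.06 ± 0.25 (adjusted p = 0.00416), and Lair1, an inhibitory collagen receptor of leukocytes, by -0.64 ± 0.15 (adjusted p = 0.00384). The higher ones were the proteases Mmp19 (0.30 ± 0.08, adjusted p = 0.00661), Mmp12 and Mmp2, the fibril-binding Lum, and the regulators Smad2 (0.32 ± 0.07, adjusted p = 0.00171), Tgfbr1, Ctgf and Ltbp2. The liver list differed in the same comparison, as given above. With its mean as a covariate, Mmp19, Timp4 and Ddr1 kept their calls of these 16 genes, 8 other genes of the lists were called, and P4hb changed sign (0.04, adjusted p = 0.888).

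Markers of the cells of the depot are given beside the collagen values. The mean of the fibroblast and progenitor list was 11.79 ± 0.11 in the wild types and 11.94 ± 0.24 in the knockouts of the ChREBPβ line, and 11.80 ± 0.10 and 11.67 ± 0.10 in those of the total line. The endothelial list was at 12.29 ± 0.18, 12.50 ± 0.17, 12.34 ± 0.13 and 12.34 ± 0.18, and the macrophage list at 12.62 ± 0.29, 12.52 ± 0.19, 12.46 ± 0.23 and 12.23 ± 0.26 in the same order. Of single markers in total ChREBP KO, Ly6a of progenitors fell by 0.49 ± 0.10 (limma adjusted p = 0.00332). It was the 1 called of 8 genes in its list, of which 3 had differences above 0 and 5 below. Plin1 and Cidec of adipocytes rose by 0.43 and 0.39, the 2 called of 8 in their list. Of these 8, 7 had differences above 0 and 1 below. Over all genes, 9.25% were called. Rgs5 of pericytes rose by 0.33 (adjusted p = 0.0387), and the other 5 genes of the mural and smooth muscle list had differences below 0 that were not called. The mean of that list was 12.70 ± 0.35 in total ChREBP WT and 12.57 ± 0.26 in its KO. Their part in the collagen values was not tested.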

How the data were processed

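Single-colour Agilent arrays of pgWAT were analysed, 25 in all, on 15 slides in 4 wash batches. The authors read the scanned images with Agilent Feature Extraction 10.10.1.1 (per the submitters' processing notes) and deposited the spot intensity of each array and a table of log2 values of 40561 probes, quantile normalised between arrays per the study's methods, with 23 empty cells. Each column matched the log2 median intensity of its own array best (lowest correlation 0.99982). The median intensity of an array was 84 to 127 over a background of 15 to 22, and the number of arrays limits the precision. The genome build of the probe positions is mm9, and no annotation of it was used.

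The deposited log2 values were fitted for all probes with limma 3.58.1 under R 4.3.3 (group and wash batch, 18 residual degrees of freedom), with Benjamini-Hochberg adjustment over all probes and a threshold of 0.05. ± after a difference is its SE and after a level its SD. The limma p-values set each difference against the spread between the mice used, pooled over the 4 groups. The fit was tested on simulated data. Genes always named were the main chains of types I, III, IV, V, VI, XV and XVIII, with every called collagen gene and up to 3 called genes per list. Members and lists were chosen with earlier results of these data known. Alternatives are a rebuild from scanner values, other background corrections and scalings, a filter, other model terms, all probes of a gene, and leaving out each array. The values of 1 of the called genes counted among the matrix regulators are not reported here.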

Additional observations from a re-analysis of the deposited data

Results flagged for a closer look

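Col12a1 had effects of the 2 deletions that differed by -1.09 log2 units (total ChREBP effect minus ChREBPβ effect, limma adjusted p = 0.018), with all 5 total ChREBP KO arrays below all 7 of their WT. Among 76 groups examined (19 items in 4 groups), 1 array stood apart by Dixon's test at 95%, where chance gives about 1 in 20 groups. It was Col5a3 in total ChREBP KO replicate 4, at 14.98 against 14.35 to 14.49 in the rest of the group.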

How the results depend on the processing

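The direction of all 19 collagen differences with an unadjusted p under 0.05 was kept under every alternative run. These 19 were picked by that p, and each alternative used arrays of the same mice, so kept directions are no further evidence for them. The ChREBPβ comparison had 0 called collagen genes in all alternatives. For loss of both isoforms, the 1 called collagen gene became 2 when processed signals were divided by each array's 75th percentile, without the wash batch term and with array quality weights (Col12a1 joined each time), and 3 with the groups compared alone (Col12a1 and Col6a4 joined). Leaving out single arrays gave 1 to 2, with 2 without ChREBPβ KO replicate 4, 5 or 6. Between wild types, the 4 calls became 2 with the groups compared alone and 1 to 6 on leaving out single arrays. The call of Col5a3 was lost without ChREBPβ WT replicate 1, 4 or 8 or total ChREBP WT replicate 5, 7 or 8, that of Col6a4 without ChREBPβ WT replicate 3, 6 or 7 or total ChREBP WT replicate 2, 3, 4 or 5, and that of Col9a2 in 23 of 37 alternatives. That of Col18a1 was lost in 1 of 37, the liver covariate, chosen after seeing the data.

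With that covariate, calls in collagen genes fell to 0 for loss of both isoforms and to 1 between wild types (Col4a1 alone), the difference of effects kept Col12a1, and pathway genes called were 4 and, for the difference of effects, 2. The median differences between wild types were then -0.18 for fibrillar, -0.24 for basement membrane and -0.048 for other collagens. With the replicate number as a block, Col12a1 lost its call for the difference of effects (0 called) and the total ChREBP comparison had 2 called (Col6a3 and Col6a4). The numbers were not taken as pairs, since same-numbered WT and KO arrays correlated between -0.45 and 0.41 in their deviations from the group mean.

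The median of the other collagens moved by more than the spread between arrays in some settings. It was -0.089 for total ChREBP KO and -0.15 for the difference of effects with the scaled processed signal, -0.15 for the latter with probes well above background on all arrays, and 0.15 for ChREBPβ KO with array quality weights. Leaving out single arrays gave 0.0048 to 0.15 for ChREBPβ KO and -0.15 to -0.017 for the difference of effects. Counts of called pathway genes were 0 to 3 in ChREBPβ KO (3 without ChREBPβ KO replicate 4), 6 to 11 in total ChREBP KO (6 without total ChREBP KO replicate 2 or 3) and 0 to 2 for the difference of effects (2 without total ChREBP WT replicate 2) when single arrays were left out. Array quality weights gave 4 for the difference of effects and 25 between wild types. The 7 correlated pairs past the test were 7 with wash batch means removed and 7 with scanner values. The cause of these changes was not tested. The 4 collagen probes not well above background on all arrays, those of Col9a1, Col9a3, Col11a1 and Col25a1, limit what can be read of these genes.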
